A study of Mus musculus with 31 samples.

Results

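The 10 genes described here are Trp53, which encodes the transcription factor p53, and 9 genes that p53 is known to activate: Mdm2, Perp, Ccng1, Trp53inp1, Sesn2, Bbc3, Phlda3, Zmat3 and Aen. They were chosen by name, not by their values, out of 46130 annotated genes with exonic entries in the 4sU RNA table. Their exonic entries were summed per gene, and so were their intronic entries. Exonic sums of 9 of the 10 genes passed the filter on low values, which was a level of 1 TPM or more when averaged across all 16 libraries; Bbc3 did not. Intronic sums of 8 of the 10 passed, all but Perp and Phlda3. TPM is a level corrected for transcript length and scaled to the same total in every library, so a value is a share of the library and not an amount per cell.

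The cells were mouse embryonic stem cells of the DTCM23/49 XY line, grown on gelatin with LIF, in which Dicer1 can be inactivated by 4-hydroxytamoxifen (4-OHT). Dicer1 encodes the ribonuclease that releases mature microRNAs from their hairpins. RNA was labelled with 200 µM 4-thiouridine (4sU) for 10 or 15 minutes, and the labelled, newly made RNA was separated from the unlabelled, preexisting RNA. Both fractions were sequenced at both times from 2 cultures of wild-type (WT) cells and 2 of Dicer-depleted cells, which makes 16 libraries. Depleted cells had 8 days of 800 nM 4-OHT. The labels give 8 days for the WT cells too and describe both as cells with a conditional Dicer mutation, without saying whether WT cells received the drug, so any effect of 4-OHT itself cannot be told apart from the loss of Dicer. Sample titles call the unlabelled fraction total, whereas the characteristics call it preexisting. A further 15 libraries held small RNA from days 0, 4, 8, 10 and 12 of treatment, with 3 libraries a day. The files give no read numbers for 4sU libraries, so their depth is unknown. Nothing beyond a biological replicate number says how the cultures of a group were kept apart.

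p53 binds DNA as a tetramer at paired decamers near its target genes. In unstressed cells its level is kept low by MDM2, a ubiquitin ligase whose own gene p53 activates, so the pair form a feedback loop. DNA damage and other stresses stabilise the p53 protein, largely without a change in its mRNA, and the targets then act on cell cycle arrest, DNA repair, metabolism and apoptosis. Embryonic stem cells carry abundant p53 and a restrained G1 checkpoint, and p53 also activates the genes of the miR-34 microRNAs.

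In preexisting RNA, WT libraries held 13.4 to 17.9 TPM of Dicer1 and depleted ones 1.20 to 3.37 TPM, so every depleted library was the lower, as labelled. All 10 embryonic stem cell markers examined reached a mean of 1 TPM, and their summed level was 1540 to 1748 TPM in WT and 1450.1 to 1613 TPM in depleted preexisting RNA. Single markers differed in direction. All depleted preexisting libraries lay above the WT ones for Nanog and Tfcp2l1 (2 of 10 markers, against 7.03% of all features). They lay below them for Tdgf1 (1 of 10, against 2.87%). A mean of 1 TPM was reached by 1 of 8 fibroblast feeder markers, 1 of 7 primitive endoderm markers, 1 of 6 trophoblast markers and 3 of 6 neural or mesoderm markers. In preexisting RNA the summed neural or mesoderm markers lay at 26.8 to 32.1 TPM in WT and 28.7 to 57.7 TPM in depleted libraries. The part of such cells in the values below was not tested, and in bulk RNA more cells of a type and more RNA per cell cannot be told apart.

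Sequences matching the p53 site are shown first, because p53 binds such pairs at its target genes; most of the 10 genes had none in the window searched. Within 3000 bases either side of the gene start in GENCODE M21, both strands of the GRCm38 genome were searched for p53 decamer pairs with a spacer of at most 13 bases and at most 1 mismatch. Each decamer had to hold an intact core (C, then A or T, then A or T, then G), so a mismatch could lie only outside it. Such a pair stood near 3 of the 10 genes, near 12 of 34 other known p53 targets, and near 2560 of 21938 coding genes (11.7%). Only protein-coding genes were searched, so noncoding genes among the 34 could not be counted. Capitals mark the decamers.
Ccng1, in an intron, chr11:40754936-40754955, minus strand: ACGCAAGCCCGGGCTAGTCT
Trp53inp1, upstream of the gene, chr4:11155112-11155132, plus strand: AAACATGTCCaGGACTAGCCT
Zmat3, chr3:32364331-32364350, minus strand: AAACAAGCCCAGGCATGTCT
The Ccng1 pair lies 366 bases after the gene start with 1 mismatch, and the Trp53inp1 pair lies upstream, at -1309 bases from the annotated start, with none. The Zmat3 pair has no mismatch and lies 1674 bases after the gene start, inside an exon of a transcript annotated as a retained intron; 2 further overlapping pairs there have 1 mismatch each. These are matches of letters, and binding was not measured.

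Dicer loss also removes the microRNAs that could act on these mRNAs. The most abundant family of embryonic stem cells, miR-290 and relatives, shares the seed AAGUGCU (bases 2 to 8, in capitals), and the p53-activated miR-34 family has another.
miR-291a-3p: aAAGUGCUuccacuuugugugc
miR-294-3p: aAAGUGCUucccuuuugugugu
miR-295-3p: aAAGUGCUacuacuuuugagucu
miR-34a-5p: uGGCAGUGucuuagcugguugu
miR-34b-5p: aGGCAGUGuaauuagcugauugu
These are RefSeq sequences on GRCm38.p6; miR-302a-3p and miR-34c-5p are named only. The match to the first seed, AGCACTT, occurs once in the longest annotated 3′ UTR of Ccng1, Trp53inp1, Sesn2 and Zmat3, which is 4 of 10 genes against 14.7% of 21028 coding genes. The match to the miR-34 seed, CACTGCC, occurs in Aen, 1 of 10 genes against 14.3%. The members' 3′ UTRs that match the first seed had 1684 to 6692 bases. Those without that match had 565 to 1335 bases, apart from Aen with 3793. Length was not allowed for in these shares. Capitals mark the match in its surroundings.
Ccng1, base 309 of the 3′ UTR: gttactgaaatAGCACTTcttta
Trp53inp1, base 4267: atgaacagcacAGCACTTtgcca
Sesn2, base 1264: caccaccgacaAGCACTTtgcag
Zmat3, base 2373: tgggtttccgaAGCACTTggaag
Aen, base 3104: tgtcacttgatCACTGCCtgtgg
No member's exons overlap those of another annotated gene, so exonic reads were not shared between neighbours.

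Exonic levels differed widely among the 10 genes. In WT preexisting RNA, Trp53 stood at the top with a mean of 729 TPM, followed by Mdm2 at 117, Ccng1 at 89.6, Zmat3 at 44.3, Trp53inp1 at 26.0 and Aen at 20.2 TPM. Sesn2 (5.39), Perp (4.29), Phlda3 (2.24) and Bbc3 (0.666 TPM) were far lower. The WT libraries of Mdm2 and Ccng1 overlapped, as did those of Zmat3 and Trp53inp1, Trp53inp1 and Aen, Sesn2 and Perp, and Phlda3 and Bbc3, so these neighbours were not separated in rank. In depleted preexisting RNA Perp, at 12.9 TPM, ranked above Sesn2 at 5.92 TPM, and the libraries of these genes did not overlap.

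**Figure D1:**
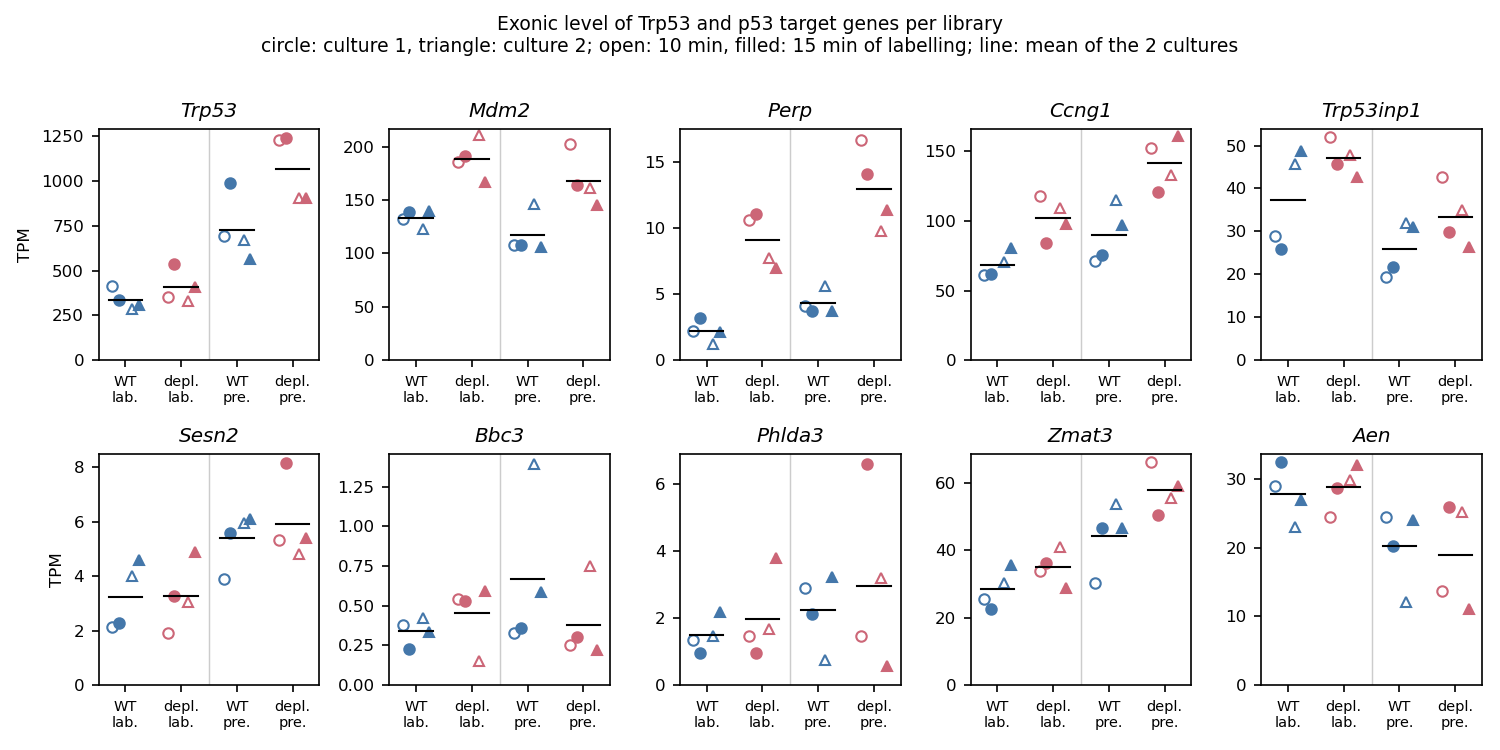
Exonic level in TPM (linear axis from 0) of Trp53 and 9 p53 target genes in each of the 16 4sU libraries, by genotype (blue WT, red depleted) and fraction; circles and triangles are the 2 cultures, open and filled symbols 10 and 15 minutes of labelling, and lines the mean of the cultures. All 4 depleted libraries lie above all 4 WT libraries for Perp and Ccng1 in both fractions and for Mdm2 in labelled RNA, as for 7.03% (preexisting) and 10.9% (labelled) of all features.

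Whether the loss of Dicer was accompanied by a change in these mRNAs was asked separately in preexisting and in labelled RNA. No member passed the threshold, an adjusted p of 0.05, in either fraction in limma's test with Benjamini-Hochberg adjustment. The background is low: 23 of 21821 features passed in preexisting RNA (0.105%) and 35 in labelled RNA (0.16%), so with 2 cultures a group the test called few genes of any kind. An unadjusted p under 0.05 was reached by 4 of 9 members and 3810 of all features in preexisting RNA, and by 3 of 9 members and 2713 features in labelled RNA. In preexisting RNA the fitted log2 change was above 0 for 8 of 9 members, against 54.4% of all features tested, with a median of 0.39 against 0.05. In labelled RNA it was above 0 for 9 of 9, against 56.5% of all features, with a median of 0.31 against 0.07.

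Perp (chr10:18845020-18857073, plus strand, GRCm38), a membrane protein of desmosomes that also takes part in p53-dependent apoptosis, had the largest fitted change among the members. Its preexisting RNA was at 4.13 and 3.73 TPM in the first WT culture (10 and 15 minutes) and at 5.60 and 3.72 TPM in the second, against 16.7 and 14.1 TPM and 9.74 and 11.3 TPM in the depleted cultures. Every depleted library therefore lay above every WT library. The means were 4.29 and 12.9 TPM, a log2 change of 1.38 (SE 0.295, n = 2 cultures a group, limma adjusted p = 0.103). In labelled RNA the WT libraries gave 2.23 and 3.22, then 1.25 and 2.15 TPM, and the depleted ones 10.6 and 11.1, then 7.71 and 6.97 TPM. There the log2 change was 1.65 (SE 0.295, limma adjusted p = 0.129), again with no overlap. Leaving out 1 culture at a time gave log2 changes of 1.13 to 1.63 in preexisting and 1.39 to 1.90 in labelled RNA.

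Ccng1 (chr11:40748552-40755311, minus strand) encodes cyclin G1, which acts in the MDM2 feedback on p53. Preexisting RNA was at 70.9 and 75.4 TPM in the first WT culture and 115 and 97.3 TPM in the second, against 152 and 120.4 TPM and 133 and 161 TPM in the depleted cultures. The groups did not overlap, although the second WT culture came near the lowest depleted library. The log2 change was 0.68 (SE 0.212, limma adjusted p = 0.182) in preexisting and 0.57 (SE 0.212, limma adjusted p = 0.337) in labelled RNA. Labelled libraries spanned 61.5 to 80.4 TPM in WT and 83.9 to 118 TPM in depleted cells.

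Mdm2 (chr10:117688875-117710758, minus strand) was at 108 and 108 TPM in the first WT culture and 146 and 106 TPM in the second in preexisting RNA, and at 202 and 164 TPM and 161 and 145 TPM in the depleted cultures. One WT library, the 10 minute library of the second culture, exceeded the lowest depleted one. In labelled RNA the groups were apart, at 123 to 140.1 TPM in WT and 167 to 211 TPM in depleted cells. Log2 changes were 0.52 (SE 0.162, limma adjusted p = 0.182) and 0.50 (SE 0.162, limma adjusted p = 0.313).

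Trp53 itself (chr11:69580359-69591873, plus strand) was at 694 and 988 TPM and 670 and 566 TPM in the WT preexisting libraries, against 1227 and 1240.2 TPM and 904 and 906 TPM in the depleted ones. The 15 minute library of the first WT culture lay inside the depleted range. The log2 change was 0.55 (SE 0.230, limma adjusted p = 0.273) in preexisting RNA and 0.28 (SE 0.230, limma adjusted p = 0.641) in labelled RNA, where the groups overlapped.

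The percentages of all features whose 4 depleted libraries all lay above the 4 WT libraries were 7.03% in preexisting and 10.9% in labelled RNA. Among members this held for 2 of 9 (Perp and Ccng1) and 3 of 9 (Mdm2, Perp and Ccng1). The reverse, all depleted libraries below the WT ones, held for 2.87% and 4.5% of all features and for no member.

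The other members overlapped between genotypes in both fractions. Zmat3 (chr3:32334792-32366014, minus strand), an RNA-binding zinc finger protein, spanned 30.3 to 53.5 TPM in WT and 50.3 to 66.2 TPM in depleted preexisting RNA, with a log2 change of 0.39. Trp53inp1, a stress-induced regulator of p53 activity and autophagy, spanned 19.3 to 32.0 and 26.5 to 42.6 TPM, with a log2 change of 0.38. In both genes the second WT culture was close to the depleted values, and with that culture alone as WT the log2 change of Trp53inp1 in preexisting RNA was 0.08.

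Sesn2 encodes a sestrin that restrains mTORC1, and its libraries spanned 3.91 to 6.10 TPM in WT and 4.79 to 8.16 TPM in depleted preexisting RNA (log2 change 0.11). Phlda3, an inhibitor of AKT, spanned 0.736 to 3.21 and 0.554 to 6.58 TPM (log2 change 0.23). Aen, an apoptosis-enhancing nuclease, spanned 12.1 to 24.5 and 11.02 to 26.0 TPM (log2 change -0.08). The 95% intervals of these changes ran from -0.63 to 0.86, -0.63 to 1.10 and -0.56 to 0.41; changes in either direction lie inside them. Bbc3, which encodes the apoptosis inducer PUMA, ranged from 0.150 to 1.39 TPM in all libraries and was not tested. The sign of the change differed in at least 1 alternative for Sesn2, Phlda3 and Aen in both fractions, and for Trp53 and Trp53inp1 in labelled RNA.

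**Figure D2:**
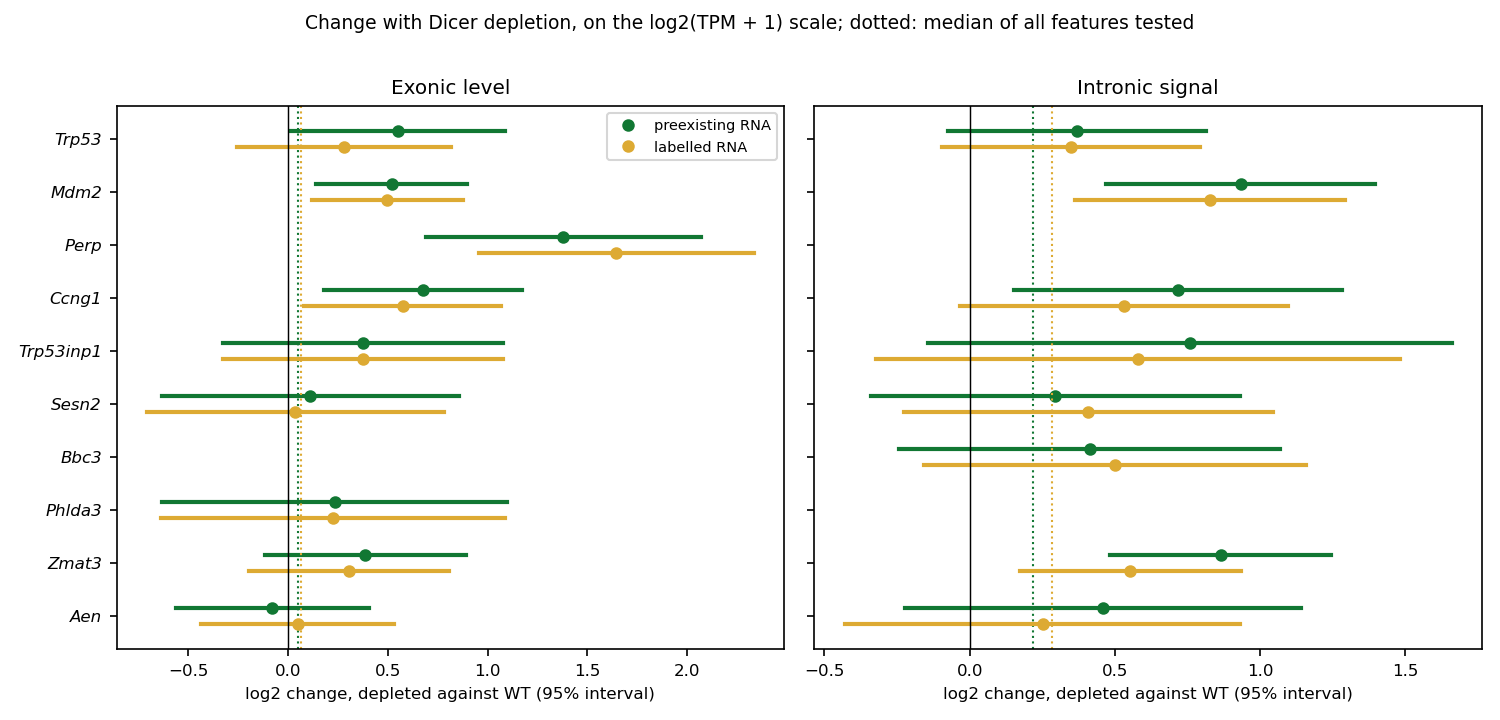
Fitted log2 change of depleted against WT cells on the log2(TPM + 1) scale, with unadjusted 95% intervals, for exonic levels (left) and intronic signal (right) in preexisting (green) and labelled (yellow) RNA; dotted lines are the medians of all features tested. Perp has the largest exonic changes (1.38 and 1.65), and the intronic medians of all features lie at 0.22 and 0.28.

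A change in stability would move preexisting RNA apart from labelled RNA, so the ratio of the fractions was compared between genotypes. No member passed, against 14 of 21821 features (0.0642%), and none had an unadjusted p under 0.05 in limma's test, against 603 of all features. The log2 change of the ratio ran from -0.27 for Perp (95% interval -1.24 to 0.71) to 0.27 for Trp53 (-0.49 to 1.03), with an adjusted p of 0.9999 for all 9 in limma. The 4 members with an AGCACTT match had ratio changes of 0.00 to 0.10, with a median of 0.08, and the other 5 of -0.27 to 0.27, with a median of 0.01; this is a description, with no test. In preexisting RNA their medians were 0.38 with and 0.52 without the match, and in labelled RNA the order was the other way, at 0.34 and 0.28.

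In WT cells the fractions themselves differed for Trp53. It was at 284 to 416 TPM in labelled and 566 to 988 TPM in preexisting RNA, with no overlap, a log2 difference of -1.11 (SE 0.230, n = 2 cultures, limma adjusted p = 0.00938). It was the 1 member that passed, against 7194 of all features (33%), of which 5453 were higher and 1741 (7.98%) lower in labelled RNA. With values centred on each library's median that split became 3276 and 5069, and Perp, Ccng1, Sesn2 and Zmat3 passed as well, all lower in labelled RNA. Without either WT culture the adjusted p of Trp53 was 0.104. With the culture as a block Zmat3 passed too (log2 difference -0.63, limma adjusted p = 0.0244 against 0.0596 without the block). The largest positive differences were those of Trp53inp1 (0.48) and Aen (0.45), which did not pass; centred on the median they were 0.01 and -0.03.

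Transcript entries within the genes were unequally labelled. The 6 Trp53 entries had labelled to preexisting ratios of 0.387 to 0.607 over the 8 libraries of each fraction. For Mdm2 the coding entries ENSMUST00000020408 and ENSMUST00000105263 had ratios of 0.99 and 1.04, whereas ENSMUST00000151725, annotated as a retained intron, was at 3.68 TPM in labelled and 0.331 TPM in preexisting RNA, a ratio of 11.1. For Aen the short noncoding entry ENSMUST00000172017 had a ratio of 6.56 and took 28.3% of the gene's exonic sum, while the 3 most abundant coding entries had ratios of 0.853 to 0.984. The retained intron entry of Zmat3, ENSMUST00000195055, had a ratio of 6.59. For Trp53inp1 the noncoding entry ENSMUST00000132693 had a ratio of 3.88 and a mean of 10.6 TPM, next to 10.2 TPM for the coding entry ENSMUST00000029865. Exonic sums of Aen and Trp53inp1 in labelled RNA therefore include entries that are scarce in preexisting RNA.

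Intronic signal comes largely from unspliced RNA and was compared between genotypes, although part of the intron bases of most members are exonic in another transcript of the gene. It took 15.5 to 18.4% of each WT and 18.5 to 23.3% of each depleted labelled library, and 4.41 to 5.49% and 5.37 to 6.68% of the preexisting ones. The intronic share of the whole library thus separated the genotypes in labelled RNA, while the preexisting ranges overlapped. The median log2 change over all 12472 intronic sums was 0.28 in labelled and 0.22 in preexisting RNA, and members are given beside it. No member passed in labelled RNA, against 490 of all sums (3.93%), or in preexisting RNA, against 2 (0.016%). An unadjusted p under 0.05 in limma was reached by 2 of 8 members and 3954 of all sums in labelled RNA, and by 3 of 8 and 2762 in preexisting RNA. The members' median was 0.52 in labelled and 0.59 in preexisting RNA, and 8 of 8 were above 0 in each fraction, against 83.4% and 80.4% of all sums.

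Mdm2 introns gave 47.7 and 42.1 TPM and 51.2 and 48.5 TPM in the WT labelled libraries, and 95.4 and 91.2 TPM and 87.9 and 66.0 TPM in the depleted ones. The groups did not overlap. The log2 change was 0.83 (SE 0.197, limma adjusted p = 0.0605), and 0.55 once values were centred on the median. It passed with a pseudocount of 5 (limma adjusted p = 0.0226), a setting in which 2861 of all 12472 sums passed, against 490 in the main setting. In preexisting RNA the log2 change was 0.93 (SE 0.197, limma adjusted p = 0.0857), at 4.86 to 7.95 TPM in WT and 7.88 to 16.3 TPM in depleted libraries. There it passed with a pseudocount of 0.1 (limma adjusted p = 0.0420), as did 982 of all sums, against 2 in the main setting.

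Zmat3 introns gave 15.9 and 13.6 TPM and 17.4 and 15.7 TPM in WT labelled libraries, against 25.0 and 26.2 TPM and 24.5 and 18.3 TPM in depleted ones, again apart. The log2 change was 0.55 (SE 0.162, limma adjusted p = 0.0827), and 0.27 after centring. It passed with a pseudocount of 5 (limma adjusted p = 0.0323), as did 2861 of all sums. In preexisting RNA the log2 change was 0.86 (SE 0.162, limma adjusted p = 0.0771), passing with a pseudocount of 0.1 (limma adjusted p = 0.0348), as did 982 of all sums.

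Of the remaining members, Trp53inp1 had intronic log2 changes of 0.58 in labelled and 0.76 in preexisting RNA, Ccng1 of 0.53 and 0.72, Bbc3 of 0.50 and 0.41, Sesn2 of 0.41 and 0.30, Trp53 of 0.35 and 0.37, and Aen of 0.25 and 0.46. After centring, the labelled change of Aen was -0.03. In preexisting RNA the intronic means of Bbc3 (0.688 TPM in WT, 1.22 TPM in depleted cells) and Sesn2 (0.334 and 0.634 TPM) were near the floor. The WT preexisting libraries of Bbc3 ranged from 0.101 to 1.94 TPM. All 4 depleted libraries lay above all 4 WT libraries for 3 of 8 members in labelled RNA (Mdm2, Ccng1 and Zmat3), against 24.9% of all sums, and for 2 of 8 in preexisting RNA (Ccng1 and Zmat3), against 19.7%. Perp introns were below the filter, yet their labelled libraries were apart too, at 0.414 to 0.553 TPM in WT and 1.42 to 1.95 TPM in depleted cells.

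**Figure D3:**
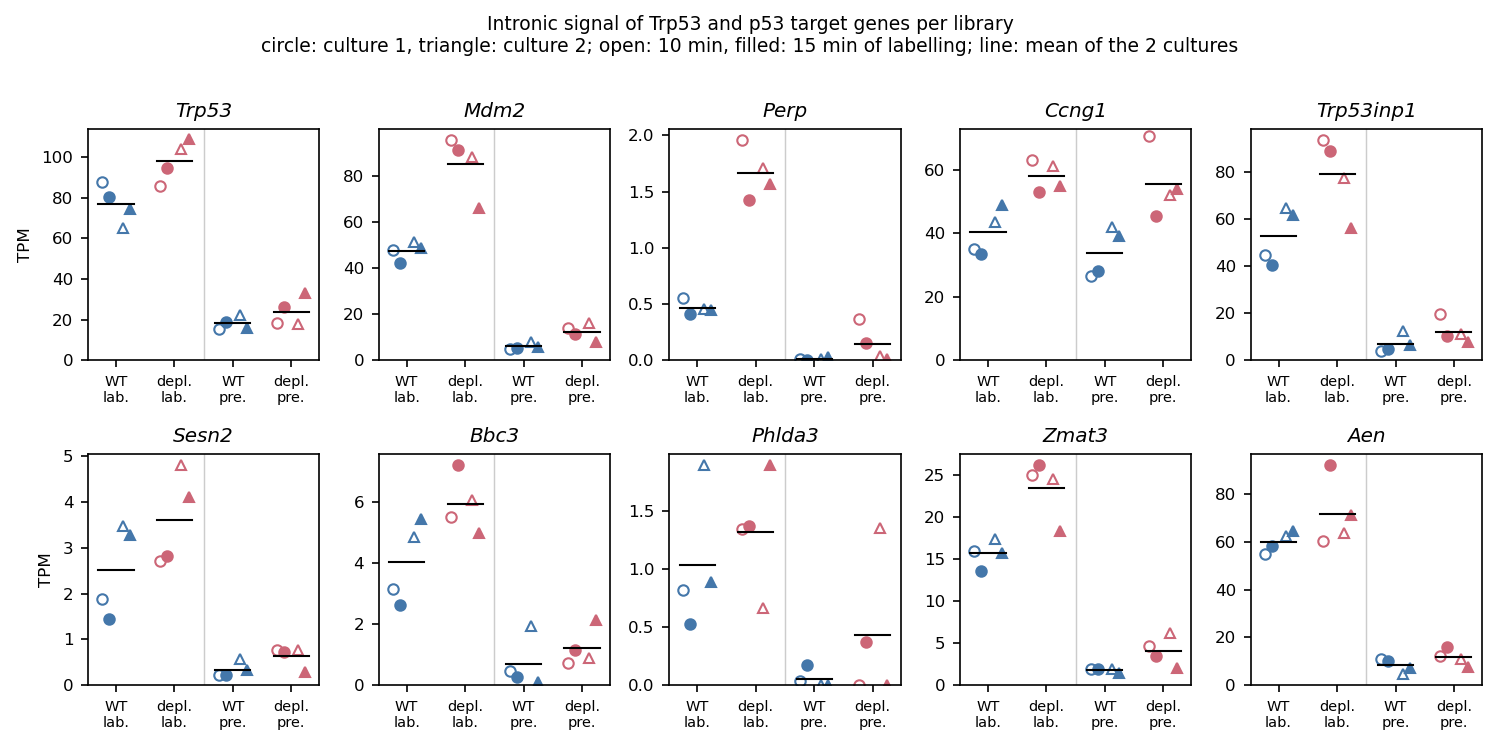
Intronic signal in TPM (linear axis from 0) of the 10 genes in each 4sU library, drawn as in the plot of exonic levels. Ccng1 is the 1 gene whose intronic signal in WT preexisting libraries (26.4 to 42.1 TPM) reaches that of labelled libraries (33.4 to 49.1 TPM).

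Ccng1 introns stood out in preexisting RNA. Their signal there was 84.2% of that in labelled RNA in WT cells, compared with a median of 16.4% over 12472 genes, of which 361 (2.89%) lay above Ccng1. The signal sat in 1 of the gene's 2 intronic entries. Introns of ENSMUST00000151359 were at 32.7 TPM in preexisting and 28.4 TPM in labelled WT RNA, and 42.7% of these intron bases are exonic in the other transcript. Introns of the coding transcript ENSMUST00000020576 hold no base that is exonic in another Ccng1 transcript, and they were at 1.26 TPM in preexisting and 11.9 TPM in labelled WT RNA, or 10.6%. In this entry labelled libraries spanned 9.93 to 14.4 TPM in WT and from 15.0 TPM upward in depleted cells. The gap was narrow, and such separation is common. In labelled RNA all 4 depleted libraries lay above all 4 WT libraries for 24.9% of all intronic sums, whose median log2 change was 0.28. The source of the preexisting signal in introns of ENSMUST00000151359 was not tested, so the intronic sum of Ccng1 cannot be read as unspliced RNA alone. Other members also have intron bases that are in part exonic in another transcript of the gene. That share was 22.6 to 23.3% for the coding entries of Trp53 and 100% for its entry ENSMUST00000130540, 14.3 to 75.1% for the Zmat3 entries, up to 50.5% for the Mdm2 entries and up to 32.1% for those of Trp53inp1. Sesn2 and Perp had no such base. A large share did not always go with a high preexisting signal. In WT cells ENSMUST00000130540 of Trp53 was at 0.54 TPM in preexisting and 4.64 TPM in labelled RNA. The Zmat3 entry with a share of 75.1% was at 0.692 and 5.3 TPM. What the shared bases add to the intronic values was not tested.

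The wider set of p53 targets gives the setting of these values. Of 34 other known targets, 29 had exonic sums that could be tested, and none passed in preexisting RNA, labelled RNA or their ratio; an unadjusted p under 0.05 in limma was reached by 13 of 29 in preexisting RNA, against 3810 of 21821 features, by 7 of 29 in labelled RNA, against 2713, and by none in the ratio, against 603. In preexisting RNA 22 of 29 had a log2 change above 0, against 54.4% of all features, with a median of 0.40. In labelled RNA this held for 20 of 29, against 56.5%, with a median of 0.29. All 4 depleted libraries lay above the WT ones for 10 of 29 and 7 of 29, against 7.03% and 10.9% of all features. Gdf15, Fas, Dram1, Trp53cor1 and Rprm were below the filter.

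Cdkn1a encodes the cell cycle inhibitor p21. Preexisting RNA was at 30.3 to 59.4 TPM in WT and 155 to 192 TPM in depleted libraries, a log2 change of 1.99 (SE 0.302, limma adjusted p = 0.0508) that fell just short of the threshold. This change passed in 4 of 14 alternatives, in which 98 to 141 of all features passed, against 23 in the main setting. Leaving out 1 culture at a time gave log2 changes of 1.58 to 2.405. Labelled RNA was at 19.4 to 31.3 and 52.4 to 85.0 TPM, a log2 change of 1.35 (SE 0.302, limma adjusted p = 0.212). The intronic signal of Cdkn1a in labelled RNA overlapped, at 6.65 to 19.8 TPM in WT and 10.9 to 22.7 TPM in depleted libraries.

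Rrm2b, a ribonucleotide reductase subunit for DNA repair, had a mean of 43.7 TPM in WT and 129 TPM in depleted preexisting RNA (log2 change 1.51, limma adjusted p = 0.151). Its depleted libraries spanned 77.2 to 231 TPM, and leaving out 1 culture at a time gave log2 changes of 0.965 to 2.05. Ephx1, an epoxide hydrolase, had means of 3.76 and 13.2 TPM (log2 change 1.40, limma adjusted p = 0.172). Its depleted libraries spanned 6.26 to 23.0 TPM, and the log2 change was 0.68 without the first depleted culture and 2.12 without the second. Polk, a translesion DNA polymerase, had means of 8.90 and 23.8 TPM (log2 change 1.35, limma adjusted p = 0.119). In each of these genes all 4 depleted libraries lay above the WT ones. Like Cdkn1a, they were named because their changes in preexisting RNA were among the 4 largest, so this separation adds no support.

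In intronic labelled signal 2 of 22 tested targets passed as higher, against 3.9% of all sums. Their means over all 16 libraries were 1.66 TPM (Pmaip1) and 1.22 TPM (Steap3). On WT libraries alone neither would have reached the filter of 1 TPM, so both were tested only because of their depleted libraries. Pmaip1, which encodes the BH3-only protein NOXA, went from a mean of 1.76 to 4.44 TPM (log2 change 0.98, SE 0.123, limma adjusted p = 0.0213), and Steap3, a metalloreductase, from 1.51 to 2.87 TPM (log2 change 0.63, SE 0.125, limma adjusted p = 0.0455). Neither passed when values were centred on the median, where their log2 changes were 0.70 and 0.35, nor when any 1 culture was left out.

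**Figure D4:**
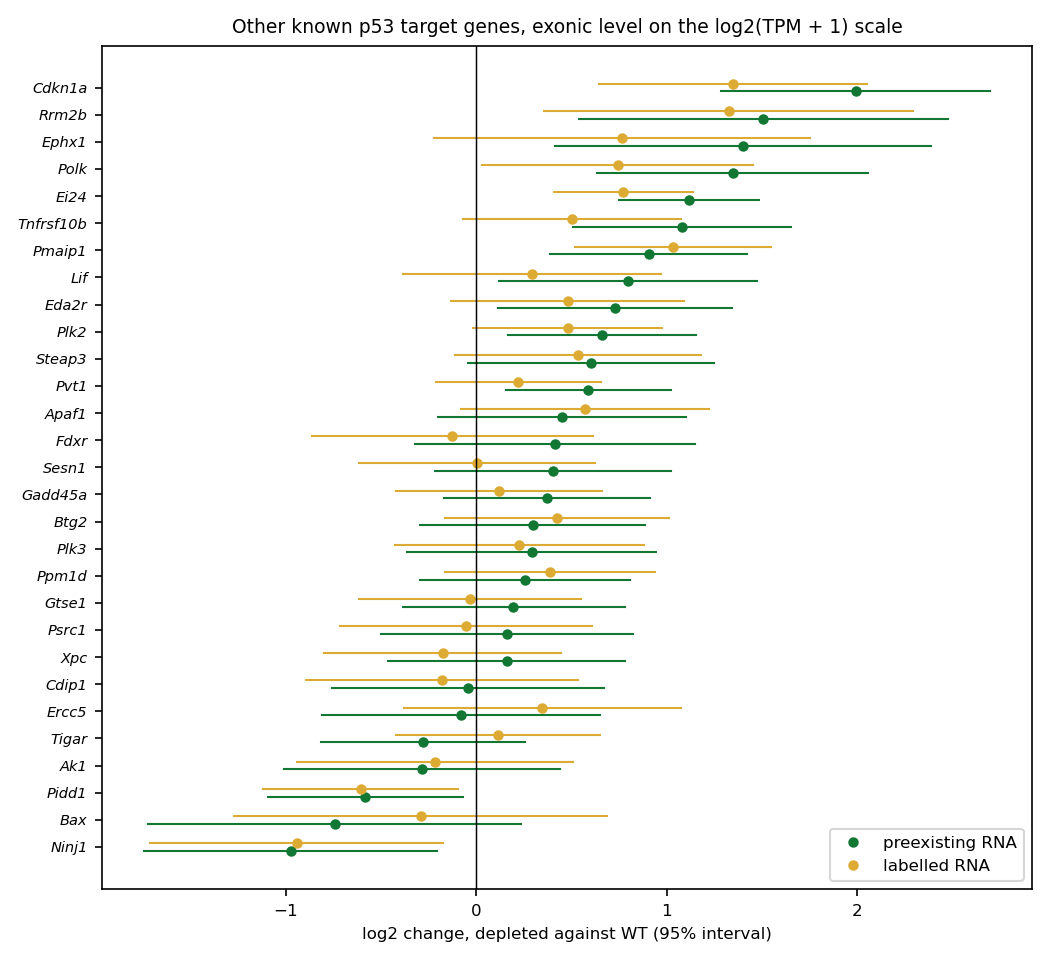
Fitted log2 change of depleted against WT cells in exonic level, on the log2(TPM + 1) scale with unadjusted 95% intervals, for the 29 other p53 targets tested, in preexisting (green) and labelled (yellow) RNA, ordered by the preexisting value. Cdkn1a is at the top with 1.99 in preexisting and 1.35 in labelled RNA, and 22 of 29 genes lie above 0 in preexisting RNA, against 54.4% of all features.

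Of 26 regulators and partners of p53, 23 were tested and none passed in exonic level or ratio; an unadjusted p under 0.05 in limma was reached by 6 in preexisting RNA, 3 in labelled RNA and none in the ratio, of the same 3810, 2713 and 603 features. Their median log2 change was 0.14 in preexisting and 0.04 in labelled RNA. Cdkn2a, Ppp1r13l and Trp63 were below the filter. The ribosomal proteins RPL5 and RPL11, which can bind MDM2, had Rpl11 at a mean of 1265 TPM in WT and 719 TPM in depleted preexisting RNA (log2 change -0.82, limma adjusted p = 0.136) and Rpl5 at 1313 and 896 TPM (log2 change -0.55, limma adjusted p = 0.138). Their preexisting libraries overlapped. Rpl11 spanned 719 to 1556 TPM in WT and 515 to 1175 TPM in depleted cells, and Rpl5 996 to 1619 and 743 to 1035 TPM. In labelled RNA all 4 depleted libraries of both genes lay below the WT ones, which held for 2 of 23 regulators and 4.5% of all features. The depleted libraries all lay above the WT ones for 2 of 23 in preexisting and 1 of 23 in labelled RNA, against 7.03% and 10.9%. Chek1, a DNA damage checkpoint kinase, had preexisting means of 115 TPM (WT) and 202 TPM (depleted) (log2 change 0.79, limma adjusted p = 0.148). Its libraries overlapped, at 107 to 139 TPM in WT and 125 to 330 TPM in depleted cells. Trp73, a p53 relative, had a log2 change of 1.36 in preexisting RNA (limma adjusted p = 0.402), with depleted libraries from 0.390 to 26.1 TPM and WT libraries from 0.487 to 2.19 TPM; without the first depleted culture it was -0.02. In intronic labelled signal 19 of 21 had a log2 change above 0, against 83.4% of all sums, with a median of 0.35 against 0.28. Of the 21, 1 passed the threshold as higher, a share near the 3.9% of all sums. It was Ep300, a histone acetyltransferase and p53 coactivator (10.4 to 18.9 TPM, log2 change 0.79, SE 0.152, limma adjusted p = 0.0446), a call lost on centring and when any 1 culture was left out.

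Over the 8 culture by fraction values, the genes outside all lists whose log2 profile was most like the mean standardised profile of the 9 tested members were Etl4 (Pearson r 0.970), Gm6645 (0.963) and Pter (0.962), out of 10567 genes with a mean of at least 5 TPM. The mean profile did not describe every member: its correlation with the members' own profiles was highest for Ccng1 (Pearson r 0.907) and Perp (0.876), low for Trp53inp1 (0.326) and negative for Aen (-0.428). Mean preexisting RNA of Etl4 was 191 TPM in WT and, in depleted cells, 322 TPM (limma adjusted p = 0.124). These correlations share the same libraries and the contrasts of genotype and fraction, and are descriptions.

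The miR-34 microRNAs are products of p53 target genes that also need Dicer to mature. Levels are in RPM, for which a count was divided by the library's total of assigned and unassigned reads, in libraries of 11134202 to 16216368 reads. miR-34a-5p was at 47.5, 42.2 and 42.4 RPM on day 0, at 32.5, 40.6 and 44.3 RPM on day 4, and at 5.92, 1.56 and 3.09 RPM on day 8. Days 0 and 4 overlapped and day 8 lay below both. The mean fell from 44.0 ± 2.99 RPM to 3.53 ± 2.22 RPM (SD, n = 3), 12.5-fold lower, with an exact two-sided permutation p of 0.1, the smallest that 3 against 3 libraries can give. Relative to microRNA reads alone, which shrank over the same days, the log2 change was 0.31 in place of -3.64. miR-34c-5p, the most abundant of the family here, was at 222 ± 23.7 RPM on day 0, 216 ± 57.8 RPM on day 4 and 14.6 ± 6.75 RPM on day 8, and miR-34b-5p at 6.67 ± 0.658, 8.17 ± 1.39 and 0.656 ± 0.657 RPM. By day 12 miR-34a-5p stood at 2.62% and miR-34c-5p at 1.07% of their day 0 means. These late values rest on few reads: 33, 7 and 7 for miR-34a-5p and 37, 25 and 38 for miR-34c-5p on day 12. On day 8 miR-34b-5p had 21, 4 and 3 reads. For comparison, miR-295-3p was at 2.28% on day 8, next to 8.01% for miR-34a-5p and 6.57% for miR-34c-5p; these differences were not tested.

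**Figure D5:**
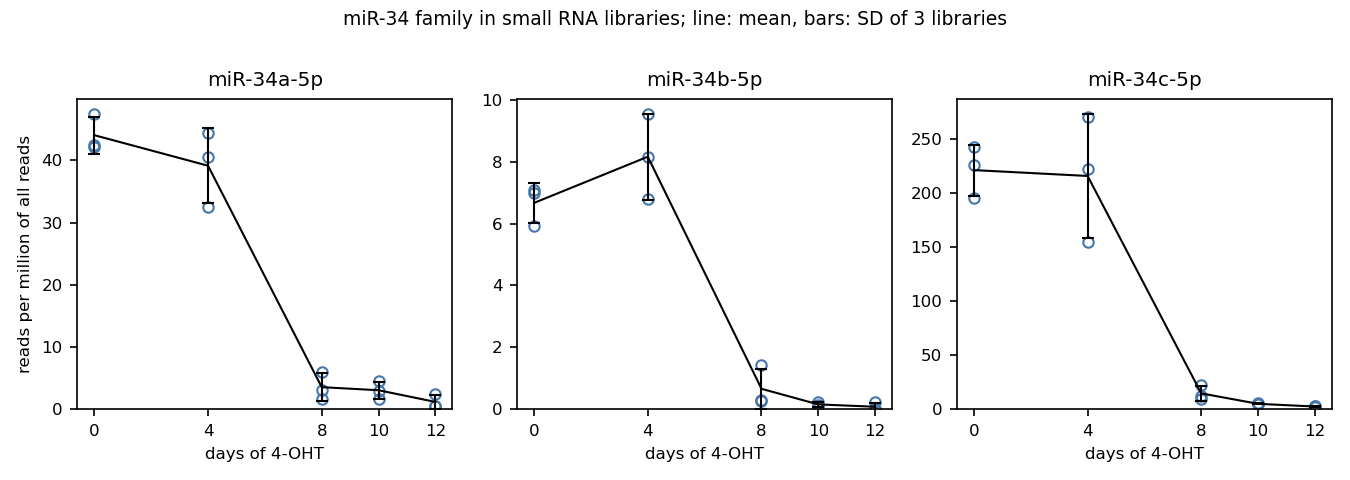
Level in RPM (linear axis from 0) for miR-34a-5p, miR-34b-5p and miR-34c-5p against days of 4-OHT; circles are single libraries, lines join the means of 3 libraries, and bars are SDs, cut off at 0 where they would pass below it. Libraries of days 0 and 4 overlap for each of the 3 microRNAs, and every library from day 8 on lies below them.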

How the data were processed

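Small RNA counts were deposited by the authors without normalization. Per the labels' protocols, the steps were cutadapt 1.8 for adapters, Bowtie2 against mm10, and HTSeq over miRBase 21. The 5 summary lines of unassigned reads, 78.7 to 99.6% of a library, entered only the library size. The 4sU table is named TPM by the authors, yet each deposited column sums to 10000000, so it is treated as a signal at 10 times TPM; exonic and intronic entries share that sum. Per the labels' protocols, STAR 2.5.0 filtered ribosomal reads, and RSEM quantified the others on exons and introns.

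Values were divided by 10 and summed per gene of GENCODE M21. Each culture's libraries of 10 and 15 minutes were averaged as TPM, then tested with limma 3.58.1 (trend) in R 4.3.3 on log2(TPM + 1), so fold changes of low genes are understated. All 8 culture by fraction values in 4 groups shared 1 spread, intronic sums had their own fit, and p-values were adjusted over all features. No block was used; labelled and preexisting RNA of 1 WT culture deviated together (r 0.349), so the culture block is given there. P-values measure spread between these cultures only. The fit was checked on simulated data. Figures used matplotlib 3.10.9.

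The members, lists, tests and alternatives were chosen with earlier results of these data known. Named genes were all members and, of each other list, those past the threshold in a genotype comparison and the 4 largest changes in preexisting RNA with at least 5 TPM in the higher genotype.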

Additional observations from a re-analysis of the deposited data

How the results depend on the processing

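Counts of all features called, with 2 cultures a group, depended strongly on the settings, while no member was called in exonic level or ratio between genotypes under any of the 14 alternatives. In labelled against preexisting RNA in WT, 5 members were called in at least 1 of 12 alternatives, Trp53 in 10 of them and Zmat3 in 3. Preexisting RNA had 23 calls: 141 with a pseudocount of 0.1, 1 with no filter, 14 with values centred on the median, 0 with only the groups compared, 1 with 10 minute and 7 with 15 minute libraries, and 0 to 28 when leaving out 1 culture. Chosen after seeing the data, averaging the log2 values of the 10 and 15 minute libraries gave 141 (109 higher and 32 lower) and coding entries alone 98. Under these, the replicate block and a pseudocount of 0.1, Cdkn1a (lowest adjusted p 0.0419) passed in limma, and so did Ei24, another target, chosen after its values were seen (0.0426, against 0.0505 in the main setting). Labelled RNA had 35 calls: 21 with a pseudocount of 0.1, 87 with no filter, 23 centred, 23 with 10 minute libraries, and 50 to 80 without 1 culture. The ratio had 14: 3 with a pseudocount of 0.1, 1 in a fit of culture differences, 23 with 15 minute libraries, 1 with averaged log2 values, and 0 to 82 without 1 culture. Intronic labelled signal had 490: 1 with a pseudocount of 0.1, 2861 with 5, 1084 with no filter, 2 centred, 3 with only the groups compared, 19 and 82 with 10 and 15 minute libraries, and 1 to 6 without 1 culture. Intronic preexisting signal had 2: 982 and 1 with pseudocounts of 0.1 and 5, 1 with no filter, 0 with only the groups compared, 1 with 15 minute libraries, and 0 to 4 without 1 culture. Labelled against preexisting RNA in WT had 7194: 3964 with 10 minute libraries and 49 to 53 without 1 culture, where a lone culture is assumed to vary like the rest. The causes were not tested. miR-34a-5p had a log2 change of -3.64, -4.24 to -3.29 without 1 library and 0.31 (p = 0.5, exact permutation test) with microRNA reads as library size, where the total itself falls.

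The replicate number gave WT and depleted cultures a shared number without a stated shared origin, and their deviations had a correlation over features of 0.203 in preexisting and 0.131 in labelled RNA for exonic levels, and of 0.159 and 0.44 for intronic signal. With the replicate block there were 140 calls in preexisting RNA, 30 in labelled RNA, 7 in the ratio, 1128 in intronic labelled and 152 in intronic preexisting signal, and 8030 for labelled against preexisting RNA in WT. Mdm2 introns in labelled RNA passed with the block (limma adjusted p = 0.0499). Paired by number, miR-34a-5p had an exact sign-flip p of 0.25. Unknown depth limits what can be said of Bbc3, Phlda3 and Perp introns.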
